A study of Homo sapiens with 9 samples.

Results

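Genes of the lysosome were followed through 48 h of doxycycline in 3 U937 lines. The set holds 10 of the 60623 genes in the deposited tables and was chosen by gene name: 7 cathepsins (CTSA, CTSB, CTSC, CTSD, CTSH, CTSS and CTSZ), the membrane glycoproteins LAMP1 and LAMP2, and TFEB. TFEB is neither a cathepsin nor a membrane protein but a transcription factor of lysosomal genes. Each of the 10 names belonged to 1 Ensembl identifier, and all 10 genes passed the filter on low values, which asks that the libraries compared average 1 FPKM or more, in every comparison.

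U937 is a human leukaemic cell line of the monocytic lineage. RNA-seq was done on 3 stable lines with a doxycycline-inducible retroviral vector that was empty (labelled WT) or coded for HA-tagged AML1-ETO (clone 4) or HA-tagged ETO2-GLIS2 (clone 14). Each line was sequenced uninduced (0 h) and after 12 and 48 h with 5 μg/ml doxycycline, a drug that the empty vector line also received. With 1 library for each of the 9 line and time combinations and 1 clone for each fusion protein, no difference below has a replicate check, and no p-value was computed. Between 15136399 and 18443640 reads per library fell on genes. Expression is given as FPKM, which divides a gene's reads by the length of its exons and by all reads on genes in that library. Intervals are exact 95% intervals of the reads behind a value or a ratio and do not cover the spread between cultures. Without molecular identifiers several reads can come from 1 molecule, so the intervals can be too narrow even for counting error.

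Lysosomes are acidic organelles in which hydrolases break down material taken up by endocytosis, phagocytosis and autophagy. Cathepsins are their proteases and peptidases, LAMP proteins line the inner face of their membrane, and TFEB switches on many lysosomal genes by binding an E-box element in their promoters. Macrophages and other phagocytes are rich in these proteins, some of which also process antigens.

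The 250 bases before the transcription start are shown for CTSA, CTSD and LAMP1, whose windows hold the E-box core CACGTG, and for CTSZ, whose window does not and which had one of the largest decreases described below. They come from RefSeq on GRCh38.p14, where 7 of the 10 genes were matched (all but CTSB, CTSS and LAMP2), and are written in the direction of transcription. Capitals mark CACGTG (extended to TCACGTGA where those flanking bases are present) and the ETS core GGAAGT, which reads ACTTCC on the other strand. CTSA lies on the plus strand (chr20:45891085-45891334), CTSD on the minus strand (chr11:1763928-1764177), LAMP1 on the plus strand (chr13:113296989-113297238) and CTSZ on the minus strand (chr20:59007255-59007504).
CTSA: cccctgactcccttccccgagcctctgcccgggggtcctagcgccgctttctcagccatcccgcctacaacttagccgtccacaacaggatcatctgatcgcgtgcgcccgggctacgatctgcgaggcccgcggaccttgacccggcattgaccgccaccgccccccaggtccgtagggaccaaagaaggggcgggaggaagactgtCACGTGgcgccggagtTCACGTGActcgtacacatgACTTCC
CTSD: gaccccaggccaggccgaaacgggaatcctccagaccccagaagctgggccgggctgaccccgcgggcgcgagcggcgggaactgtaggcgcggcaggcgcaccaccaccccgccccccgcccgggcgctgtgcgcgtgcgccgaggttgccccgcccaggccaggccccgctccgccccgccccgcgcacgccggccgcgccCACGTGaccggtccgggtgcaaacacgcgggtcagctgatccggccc
LAMP1: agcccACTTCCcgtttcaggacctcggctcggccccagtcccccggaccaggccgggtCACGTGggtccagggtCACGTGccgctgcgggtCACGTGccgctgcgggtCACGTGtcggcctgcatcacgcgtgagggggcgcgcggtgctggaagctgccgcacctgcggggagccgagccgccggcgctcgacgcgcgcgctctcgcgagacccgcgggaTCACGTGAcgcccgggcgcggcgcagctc
CTSZ: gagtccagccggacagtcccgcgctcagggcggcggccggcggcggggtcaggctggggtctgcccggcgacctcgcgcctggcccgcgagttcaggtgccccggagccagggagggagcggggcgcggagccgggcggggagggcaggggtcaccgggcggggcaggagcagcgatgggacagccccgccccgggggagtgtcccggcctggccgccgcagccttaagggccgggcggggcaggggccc

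CACGTG, which equals its own reverse complement, was present in 3 of the 7 genes and in 6.34% of the 35116 windows of this length in the RefSeq table, in which a gene can have several starts. LAMP1 held 5 copies, and it was the only window among the 35116 with at least 5. CTSA held 2 copies and CTSD 1. TCACGTGA, which contains CACGTG, was in CTSA and LAMP1 and in 0.854% of all windows, and the longer palindromic CLEAR element was in none of the 7 and in 0.308% of all. The RUNX motif TGTGGT (11% of all windows), the longer PU.1 motif GAGGAAGT (2.17%) and the C/EBP motif TTGCGCAA (0.131%), each searched on both strands, were in none of the 7. GGAAGT, whose letters also end GAGGAAGT, was in CTSA, LAMP1 and TFEB and in 19.5% of all windows. These are matches of letters, and TFEB has 3 starts in the table, all of which were searched. Over the 9 libraries the highest level was 1.62 times the lowest for LAMP1, 2.17 times for CTSA and 7.64 times for CTSD. Any part of these motifs in the levels was not tested.

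The libraries matched their labels. RUNX1T1, whose sequence AML1-ETO carries, had 0.512, 22.2 and 28.7 FPKM at 0, 12 and 48 h of AML1-ETO induction and at most 0.0240 in any other line. GLIS2 went from 2.39 to 8.85 FPKM and CBFA2T3, which codes for ETO2, from 4.10 to 12.6 FPKM between 0 and 48 h in the ETO2-GLIS2 line. Of the 15 monocytic markers, 10 averaged at least 1 FPKM over the 9 libraries and 3 were below 1 FPKM in every library. CD4, ITGB2, LYZ and ELANE were high in the uninduced lines, while CD14 was at most 0.0802 FPKM and MPO at most 0.780 FPKM in any library. CD68 was at most 0.0283 FPKM, and 81.6% of its exon bases lie in exons of another gene on the same strand. Of the markers of other lineages, all 9 erythroid genes were below 1 FPKM in every library, as were 7 of 8 megakaryocyte genes (GP1BA was between 0.992 and 2.27 FPKM) and 7 of 9 T and NK cell genes, with the T cell genes CD3D, CD3E and CD3G listed at 0. The exceptions were NKG7, between 9.42 and 89.9 FPKM, and NCAM1, between 0.153 and 2.09 FPKM. Among the B cell genes, CD79A and PAX5 averaged at least 1 FPKM over the 9 libraries, CD22 reached 3.27 FPKM in the AML1-ETO line at 48 h, and MS4A1 and CD79B were listed at 0. Reads on mitochondrial genes went from 6.69% to 4.0% of all reads on genes between 0 and 48 h in the empty vector line, from 6.14% to 2.54% in the AML1-ETO line and from 7.01% to 3.32% in the ETO2-GLIS2 line. Over all genes that passed the filter, the median log2 change at 48 h was 0.16, 0.22 and 0.16 in these lines. Rescaling by the median ratio brought it to 0.01, 0.05 and -0.01. In bulk RNA, fewer cells of a type and less RNA per cell cannot be told apart.

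Levels differed more between genes than between conditions. FPKM is per length, so the genes can be ordered by it: over the 9 libraries LAMP1 averaged 143.8 FPKM, CTSB 124.9, CTSZ 97.5, LAMP2 75.0, CTSD 72.9, CTSS 51.2, CTSA 33.9, CTSC 24.9, CTSH 11.5 and TFEB 5.54. Every pair of neighbours in this order overlapped in their ranges over the 9 libraries. The highest library was 7.64 times the lowest for CTSD, 3.43 times for CTSH, 3.11 times for CTSZ, 2.69 times for CTSB, 2.60 times for CTSS, 2.17 times for CTSA, 2.05 times for TFEB, 1.86 times for CTSC, 1.62 times for LAMP1 and 1.35 times for LAMP2. The AML1-ETO library at 48 h was the lowest of the 9 for CTSD, CTSH, CTSZ and TFEB, and for the other 6 genes the lowest was the uninduced empty vector library. Even TFEB, the lowest, was above at least 63.1% of the genes listed above 0 in each library.

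The first question was which of these genes moved in the empty vector line, which received doxycycline but made no fusion protein. No line had an untreated culture sequenced after 0 h, so drug and time in culture cannot be told apart. A gene was called past a 2-fold change, computed as log2 of FPKM plus 0.01, against 0 h of the same line. In the empty vector line CTSD, CTSS and CTSB rose by 48 h, 3 of 10 members, where 8.00% of all 11624 genes tested were called up. None of the 10 was called down, and 2.99% of all genes were. The median change of the 10 was 0.54, beside 0.16 for all genes.

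CTSD (ENSG00000117984, chromosome 11 from 1752755 to 1763927 on GRCh38.p14) codes for the main aspartic protease of the lysosome. In the empty vector line it had 30.0 FPKM at 0 h, 59.0 at 12 h and 106.2 at 48 h. It rose 3.54-fold over 48 h (log2 1.82, interval 1.74 to 1.91), with the 12 h library between the others at a log2 of 0.98. CTSD was the only member called up at every setting of scaling and fold threshold tried for 48 h in this line.

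CTSB (ENSG00000164733, chromosome 8 from 11842524 to 11868087) and CTSS (ENSG00000163131, chromosome 1 from 150730188 to 150765778) code for cysteine proteases. CTSS is active also at neutral pH and trims the invariant chain of MHC class II. In the empty vector line CTSB had 68.4, 120.1 and 138.1 FPKM at 0, 12 and 48 h (log2 1.01 over 48 h, interval 0.98 to 1.05), and CTSS had 26.8, 43.0 and 56.5 FPKM (log2 1.07, interval 0.99 to 1.16). Both lay at the 2-fold line. Neither was past it after rescaling by the median ratio, nor was CTSB after rescaling by the reads outside mitochondrial genes. At 12 h no member was called in either direction, where 5.64% of all genes were called up and 1.88% down.

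The remaining members of the empty vector line stayed within 2-fold. CTSH, an aminopeptidase of the cysteine class, had 7.98, 10.5 and 13 FPKM, and TFEB had 4.43, 5.92 and 7.07 FPKM, with log2 changes of 0.70 (0.57 to 0.84) and 0.67 (0.49 to 0.86) at 48 h. CTSA, the serine carboxypeptidase that protects lysosomal sialidase and beta-galactosidase, had 21.1, 28.4 and 28.0 FPKM. CTSZ, a carboxypeptidase, had 73.6, 91.4 and 89.1 FPKM, and CTSC, the dipeptidyl peptidase that activates granule serine proteases, had 18.3, 21.6 and 20.2 FPKM. LAMP1 had 109.8, 150.6 and 138.7 FPKM and LAMP2 had 64.8, 71.8 and 80.5 FPKM. All 10 members were higher at 12 h and at 48 h than at 0 h with intervals above 0, except that LAMP2 at 12 h and CTSC at 48 h were at a log2 of -0.01 after rescaling by the median ratio.

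The second question was what induction of AML1-ETO added. In this line CTSD and CTSZ fell between 0 and 48 h, 2 of 10 members, where 9.88% of all 12030 genes tested were called down. No member was called up, where 12.6% of all genes were. These calls leave out genes past 2-fold in the same direction in the empty vector line, and without that exclusion 11.3% of all genes were down and 17.3% up. The median of the 10 was -0.17, beside 0.22 for all genes. Members were lower than at 0 h in 7 of 10 cases, and in 5 to 9 under the other scalings. With the change in the empty vector line subtracted, all 10 were below 0, from -0.09 for CTSC to -2.97 for CTSD.

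CTSD in the AML1-ETO line had 39.5 FPKM at 0 h, 56.3 at 12 h and 17.8 at 48 h. The 48 h library was the lowest of all 9, and the fold change was 2.22-fold down over 48 h (log2 -1.15, interval -1.27 to -1.03) and 3.16-fold down between 12 and 48 h (log2 -1.66). CTSD shares 27.3% of its exon bases with other genes on the same strand and 24.0% on the opposite strand, and its most expressed partner, ENSG00000229512, covers 4.42% of them on the same strand. That gene had 5.27, 3.86 and 2.61 FPKM in the AML1-ETO line and 5.85, 7.60 and 19.3 FPKM with the empty vector. The part of this overlap in the CTSD values was not tested.

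CTSZ (ENSG00000101160, chromosome 20 from 58995185 to 59007254) had 106.6 FPKM at 0 h, 115.1 at 12 h and 44.2 at 48 h in the AML1-ETO line. It fell 2.41-fold over 48 h (log2 -1.27, interval -1.36 to -1.18), again with a 48 h library below the other 8. NELFCD, which covers 31.7% of the exon bases of CTSZ on the opposite strand, was between 7.34 and 9.61 FPKM in all 9 libraries. Against the uninduced empty vector library in place of its own, neither CTSD nor CTSZ was past 2-fold in the AML1-ETO line at 48 h.

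CTSS went the other way, with 34.0, 55.7 and 63.9 FPKM in the AML1-ETO line (log2 0.91 over 48 h, interval 0.84 to 0.98), just inside the 2-fold line. It was the only member above its 12 h level at 48 h in this line. CTSB had 91.7, 132.9 and 102.5 FPKM, CTSC 21.6, 32.3 and 22.4 FPKM, and CTSA 34.4, 45.8 and 31.2 FPKM, so all 3 were highest at 12 h and within 0.16 log2 units of 0 h at 48 h. At 48 h CTSB was at log2 0.16 (-0.01 after rescaling by the median ratio), CTSC at 0.05, an interval that includes 0 (-0.12 after that rescaling), and CTSA at -0.14 (0.01 as TPM).

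TFEB had 5.56, 5.15 and 3.51 FPKM in the AML1-ETO line, a log2 change of -0.66 (interval -0.87 to -0.46). CTSH had 7.90, 10.3 and 5.65 FPKM, a change of -0.48 (-0.65 to -0.32). LAMP1 had 136.3, 169.2 and 117.8 FPKM, and LAMP2 had 71.2, 68.2 and 67.0 FPKM, the latter at -0.09 over 48 h and at 0.06 as TPM. None of these 4 was past 2-fold. Between 12 and 48 h, 9 of the 10 members were lower in this line, and CTSD and CTSZ were past 2-fold, where 10.2% of all genes were past 2-fold down. At 12 h no member was called, where 4.54% of all genes were called up and 1.72% down.

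Several markers of the myeloid state were also lower after 48 h of AML1-ETO induction. In the AML1-ETO line SPI1, which codes for PU.1, had 92.6, 53.1 and 11.9 FPKM at 0, 12 and 48 h. With the empty vector it had 67.0, 76.9 and 97.3 FPKM. While SPI1 was already lower after 12 h of AML1-ETO induction, CTSD was higher by then (log2 0.51). CTSZ had changed little (log2 0.11, and -0.05 after rescaling by the median ratio). Among 10 monocytic markers tested at 12 h in the AML1-ETO line, 1 was past 2-fold up and 0 down, with a median of 0.10. That compares with 6.57% and 2.39% of all genes. Between 12 and 48 h, 0 of 10 were past 2-fold up and 6 down, with a median of -2.59, beside 9.12% and 10.2% of all genes. Of the 9 tested between 0 and 48 h in this line, 6 fell past 2-fold and 0 rose past it, with a median of -2.96. Of all genes, 11.3% were past 2-fold down and 17.3% up in that line. With the empty vector 2 of 10 markers tested were down and 1 up, beside 2.99% and 8.00% of all genes. With ETO2-GLIS2 4 of 10 were down and 2 up, beside 2.54% and 10.8%. The sum over all 15 on the list went from 3263 to 379.8 FPKM in the AML1-ETO line. With the empty vector the same sum went from 2081 to 1450.3 FPKM, and with ETO2-GLIS2 from 2883 to 1384 FPKM. CTSD rose over the same 48 h in these lines, while CTSZ rose with the empty vector and fell with ETO2-GLIS2. NKG7 of the T and NK cell list also fell with AML1-ETO, from 63.4 to 9.42 FPKM. The part of these markers in the changes of CTSD and CTSZ was not tested.

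The third question was what induction of ETO2-GLIS2 added. No member was called in that line at 48 h, where 6.19% of all 11696 genes tested were called up and 1.33% down (10.8% and 2.54% without the exclusion of genes that moved in the empty vector line). At 12 h none was called either, beside 1.79% up and 0.858% down. The median of the 10 at 48 h was 0.47, beside 0.16 for all genes, and it was 0.54 in the empty vector line. With the change of each gene in the empty vector line subtracted, 8 of the 10 members were below 0, CTSD at -1.18, CTSZ at -0.68, CTSS at -0.55, CTSC at -0.37, CTSB at -0.31, LAMP1 at -0.24, LAMP2 at -0.21 and TFEB at -0.21. CTSA at 0.05 and CTSH at 0.02 were close to 0.

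The ETO2-GLIS2 line began with higher levels than the empty vector line. CTSD had 87.0, 124.4 and 136.1 FPKM (log2 0.65 over 48 h, interval 0.59 to 0.70), CTSB had 113.2, 173.2 and 184.2 FPKM (0.70), CTSS had 48.8, 62.3 and 69.9 FPKM (0.52) and CTSH had 11.8, 17.2 and 19.4 FPKM (0.72). These 4 proteases reached their highest level of the 9 libraries in this line at 48 h. CTSA had 30.8, 42.5 and 42.5 FPKM, and TFEB 5.19, 5.80 and 7.19 FPKM, the highest TFEB level measured. CTSZ had 125.0, 137.5 and 94.7 FPKM (log2 -0.40 over 48 h) and CTSC had 29.0, 33.9 and 24.7 FPKM (-0.23), the 2 members below their 0 h level. LAMP1 had 141.8, 177.7 and 152.0 FPKM and LAMP2 had 81.3, 82.4 and 87.4 FPKM, both at 0.10 over 48 h and below 0 after rescaling by the median ratio.

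The uninduced clones differed before any doxycycline. At 0 h all 10 members were higher in the ETO2-GLIS2 line than in the empty vector line (median log2 0.61, beside -0.02 for all genes), and CTSD, at log2 1.54 (1.45 to 1.62), was the only member past 2-fold, where 3.42% of all genes were past 2-fold up. CTSD was again the only one at 12 h, at log2 1.08, beside 2.57% of all genes. At 48 h no member was past 2-fold between these lines, where 4.15% of all genes were past 2-fold up and 2.53% down. In the uninduced AML1-ETO line 9 of 10 members were higher than in the empty vector line (median 0.33, beside 0.01), none past 2-fold, where 2.67% of all genes were past 2-fold up and 2.24% down. Clone and fusion protein cannot be told apart in these comparisons.

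At 48 h the AML1-ETO line was below the empty vector line past 2-fold in 4 members, where 11.7% of all 12261 genes tested were. These were CTSD at log2 -2.57 (-2.68 to -2.47), CTSH at -1.20 (-1.35 to -1.05), CTSZ at -1.01 (-1.10 to -0.92) and TFEB at -1.01 (-1.21 to -0.81), and the intervals of CTSZ and TFEB include the 2-fold line. CTSS, CTSA and CTSC were higher in the AML1-ETO line, at 0.18, 0.15 and 0.15. Against the ETO2-GLIS2 line all 10 members were lower in the AML1-ETO line (median -0.64, beside 0.05). The same 4 genes were past 2-fold there, CTSD at -2.93, CTSH at -1.77, CTSZ at -1.10 and TFEB at -1.03, where 11.6% of all genes were. CTSD was already past 2-fold below the ETO2-GLIS2 line at 0 h and at 12 h, at -1.14 both times, beside 2.91% and 2.68% of all genes. The 3 comparisons share libraries.

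The make-up of the 7 cathepsins of the set, which leave out CTSG (given below), shifted as well. Their summed level was 246, 374 and 451 FPKM at 0, 12 and 48 h in the empty vector line, 336, 448 and 288 FPKM in the AML1-ETO line and 446, 591 and 571 FPKM in the ETO2-GLIS2 line. CTSD made up 12.2% of the sum at 0 h and 23.5% at 48 h in the empty vector line, 11.8% and 6.20% in the AML1-ETO line, and 19.5% and 23.8% in the ETO2-GLIS2 line. CTSS made up 10.1% and 22.2% in the AML1-ETO line, and 10.9% and 12.53% in the empty vector line. The share of CTSZ fell in every line, from 29.9% to 19.7% with the empty vector, from 31.7% to 15.4% with AML1-ETO and from 28.1% to 16.6% with ETO2-GLIS2. The sum of LAMP1 and LAMP2 stayed between 175 and 260 FPKM in all 9 libraries.

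Other lysosomal genes were read from lists written by hand, counting every gene past 2-fold at 48 h whether or not it also moved in the empty vector line. By that count 8.00% of all genes were up and 2.99% down in the empty vector line, 17.3% up and 11.3% down in the AML1-ETO line, and 10.8% up and 2.54% down with ETO2-GLIS2. The counts of the lists below are small and many lie near these shares. Of the lysosomal hydrolases and their activators, 2 of 35 tested were past 2-fold up and 0 down at 48 h in the empty vector line, 6 of 36 up and 3 down in the AML1-ETO line, and 3 of 35 up and 0 down in the ETO2-GLIS2 line, with medians of 0.34, -0.23 and 0.18. The 6 of 36 up in the AML1-ETO line are close to the 17.3% of all genes. SCPEP1, a serine carboxypeptidase, fell from 106.0 to 26.3 FPKM in the AML1-ETO line and ARSB, an arylsulfatase, from 12.3 to 3.60 FPKM. IDUA, the alpha-L-iduronidase, rose in all 3 lines, from 6.44 to 13.2, from 6.11 to 15.6 and from 5.38 to 13.8 FPKM.

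Of 19 other lysosomal membrane proteins tested, 1 was past 2-fold up and 0 down in the empty vector line, 4 up and 2 down in the AML1-ETO line, and 0 in either direction in the ETO2-GLIS2 line, with medians of 0.26, 0.20 and 0.43. LAPTM5, a haematopoietic lysosomal membrane protein, fell from 113.4 to 15.6 FPKM in the AML1-ETO line, and GPNMB, a glycoprotein of phagocytes, rose from 82.9 to 212.0 FPKM. Of 16 subunits and partners of the vacuolar proton pump, which acidifies the lysosome, TCIRG1 fell from 29.8 to 9.0 FPKM and ATP6V1H rose from 8.44 to 20.4 FPKM in the AML1-ETO line. The medians of this list were 0.42, 0.37 and 0.21 in the empty vector, AML1-ETO and ETO2-GLIS2 lines, with 1, 1 and 0 genes past 2-fold up and 0, 1 and 0 down.

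The sorting machinery that delivers enzymes to lysosomes had 3 of 10 genes past 2-fold up in the AML1-ETO line and 1 of 10 in each other line, with none down, beside 17.3% of all genes up in the AML1-ETO line, 8.00% with the empty vector and 10.8% with ETO2-GLIS2. The 1 of 10 in the other lines is near the share of all genes. The cation-independent mannose 6-phosphate receptor gene IGF2R rose from 50.4 to 105.2 FPKM in the AML1-ETO line, GNPTAB, which makes the mannose 6-phosphate tag, from 4.11 to 8.28 FPKM, and GGA1, an adaptor, from 9.50 to 19.1 FPKM. These 3 rises lay close to the 2-fold line and were inside it after rescaling by the median ratio. CLN8, a membrane protein that escorts lysosomal enzymes out of the endoplasmic reticulum, rose from 3.32 to 10.1 FPKM in the ETO2-GLIS2 line. Of 20 relatives and regulators of TFEB, 1 was past 2-fold down and 0 up in the AML1-ETO line. Of all genes in that line, 11.3% were down and 17.3% up. The gene down was PPP3CA, a catalytic subunit of calcineurin, which dephosphorylates TFEB, at 17.8, 13.8 and 4.36 FPKM. In the empty vector line 2 of these 20 were past 2-fold up, and in the ETO2-GLIS2 line none was in either direction.

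Inhibitors and further cathepsins were a small group. Of 6 cathepsin inhibitors tested in the AML1-ETO line, CST7, the leukocyte cystatin F, fell from 137.8 to 2.21 FPKM, CST3, cystatin C, fell from 99.1 to 45.9 FPKM, and CSTA, stefin A, rose from 18.8 to 57.4 FPKM. CSTA also rose with the empty vector, from 13.6 to 52.6 FPKM, and with ETO2-GLIS2, from 22.3 to 62.3 FPKM, and no other inhibitor passed 2-fold in those lines. CTSG, a serine protease of azurophil granules, fell from 83.8 to 2.59 FPKM in the AML1-ETO line. With the empty vector CTSG went from 61.2 to 80.5 FPKM, and with ETO2-GLIS2 from 108.4 to 103.2 FPKM. Of the 8 further cathepsins, 2 passed the filter in the empty vector and AML1-ETO lines and 3 with ETO2-GLIS2. Besides CTSG, CTSK alone was past 2-fold among those tested, with 0.684 and 1.81 FPKM at 0 and 48 h with ETO2-GLIS2 (log2 1.39).

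**Figure D1:**
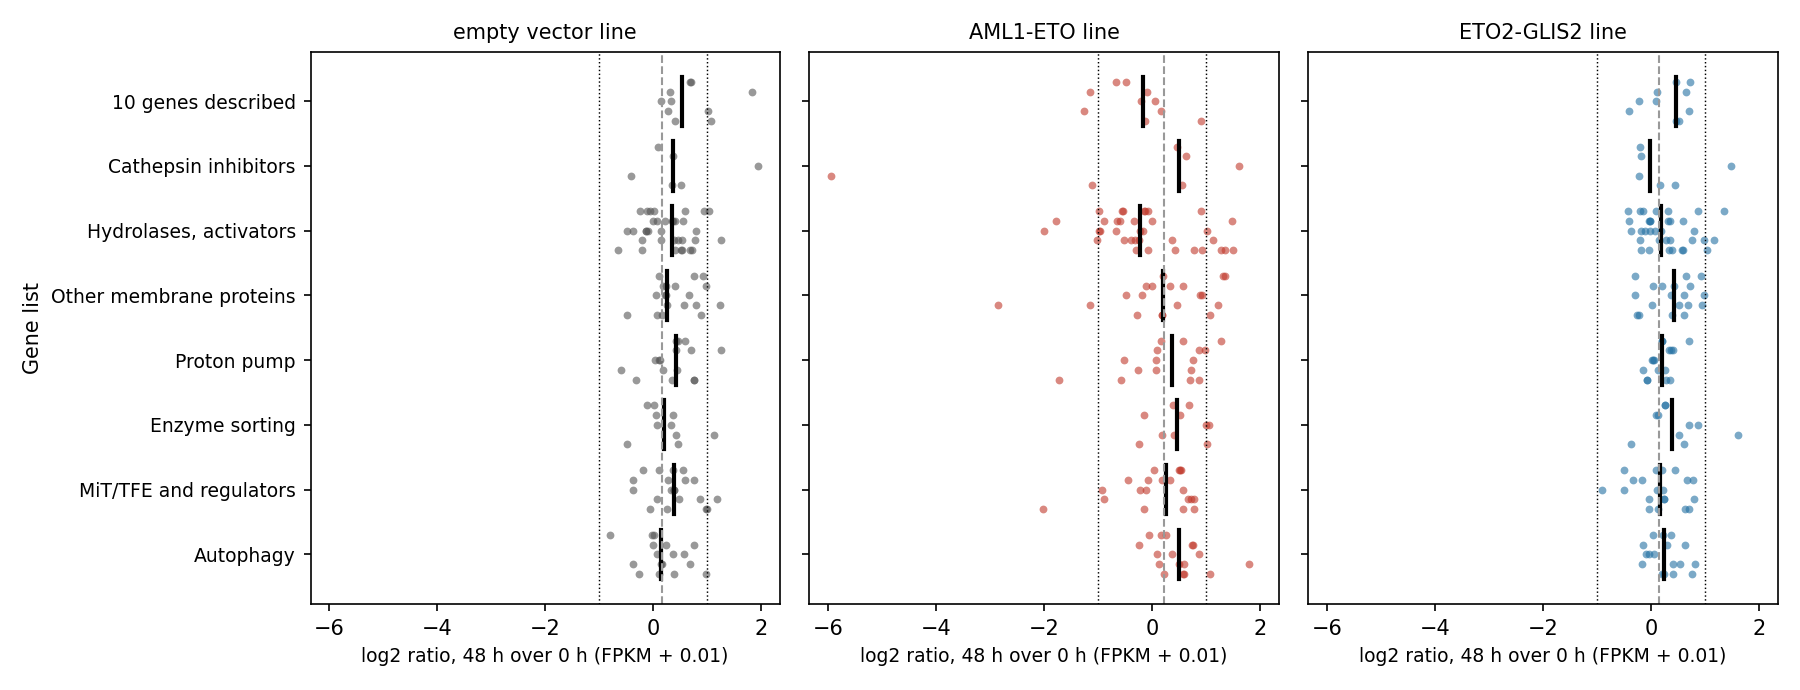
Log2 ratio of FPKM plus 0.01 at 48 h against 0 h for each tested gene (points) of the 10 genes described and 7 hand-written lists, in the 3 lines. Black bars are list medians, the dashed line is the median of all genes tested and dotted lines mark 2-fold. The median of the 10 genes lies at 0.54, -0.17 and 0.47 in the empty vector, AML1-ETO and ETO2-GLIS2 lines.

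Likeness between genes was measured as the root mean square difference of centred log2 levels over the 9 libraries, among the 7228 genes that averaged 5 FPKM or more. The pattern nearest to CTSD was that of TPSAB1, a tryptase with near-identical copies, at 0.24, then TIMP1 at 0.25 and FUCA1, a lysosomal fucosidase, at 0.29. VAMP8 at 0.12, BATF at 0.13 and RCN2 at 0.14 were nearest to CTSZ. CTSS was nearest to BLOC1S2 at 0.07, ITM2B at 0.09 and RBM3 at 0.10, and CTSB to ORMDL1 at 0.15, FAM49B at 0.16 and CCZ1B at 0.16. Among the other 9 members, the one nearest to CTSD was CTSH, at 0.44. These values describe 9 libraries that share clones, and no test was made.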

How the data were processed

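The authors aligned reads of unstranded libraries to hg38 with HISAT2 (2.0.5), used samtools (1.7), counted reads with HTSeq (0.9.1) at default settings and deposited FPKM per gene. The annotation version is not given in the sources used here. Libraries were grouped by the labels. Whole reads were recovered from the steps between low FPKM values for 99.97% of 23889 genes above 0 in at least 3 libraries, to within 0.01 reads plus rounding, and used for Clopper-Pearson intervals and the mitochondrial share. Recovery was tested on simulated data (99.78% of 23349 genes exact). With 1 library per condition no count test was run. Log2 ratios used FPKM plus 0.01. Genes averaging 1 FPKM or more over both libraries were called past 2-fold, which is the study's rule with its own unstated filter set here. The named genes are the 10 members and, per list, those averaging 5 FPKM or more with the largest 48 h changes (3 in the AML1-ETO line, 2 in the ETO2-GLIS2 line), plus the 3 genes most like each member past 2-fold at 48 h. ENSG00000229512, NELFCD, GABARAPL1 and CTSK and the other marker genes of the label check were named after their values were seen. The members and lists were chosen with earlier results of these data known. Coordinates and promoters are from RefSeq (GRCh38.p14), and exon overlap is from an annotation on GRCh37. HTSeq by default drops reads on several genes, and without strand reads of a gene and its antisense partner cannot be told apart, so levels of overlapping genes are uncertain. Alternatives covered the pseudocount, filter, scaling, fold, empty vector line and reference library. Analyses used Python (3.11.15), numpy (2.4.6), pandas (2.3.3), scipy (1.17.1) and matplotlib (3.10.9). One gene of the B cell list is not reported here.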

Additional observations from a re-analysis of the deposited data

Results flagged for a closer look

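Several members were above their 0 h level at 48 h in one line and below it in another. Each line has 1 library per time, so the differences below were not tested. They are log2 fold changes at 48 h of one line minus those of another.

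The AML1-ETO line went the opposite way from the empty vector line in 7 members, by -2.97 for CTSD, -1.54 for CTSZ, -1.34 for TFEB, -1.19 for CTSH, -0.55 for CTSA, -0.55 for LAMP1 and -0.40 for LAMP2. For CTSA and LAMP2 the opposite signs were lost when FPKM was rescaled to TPM.

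The AML1-ETO line went the opposite way from the ETO2-GLIS2 line in 6 members, by -1.79 for CTSD, -1.20 for CTSH, -1.13 for TFEB, -0.60 for CTSA, -0.31 for LAMP1 and -0.19 for LAMP2. For LAMP1 and LAMP2 the ETO2-GLIS2 value was below 0 after rescaling by the median ratio, so the signs then matched. For CTSA and LAMP2 the AML1-ETO value was above 0 as TPM, at 0.01 and 0.06, so the signs matched there too.

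The ETO2-GLIS2 line went the opposite way from the empty vector line for CTSZ, by -0.68, and for CTSC, by -0.37. The CTSC value of the empty vector line was -0.01 after rescaling by the median ratio.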

How the results depend on the processing

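No called member changed sign under any of the 13 alternative settings, while counts of called members were within 1.5 times the main count in 176 of 192 cases. Many of these main counts were 0. Of the other results checked under the settings, 229 were classed as moved and 251 as the same. Some members that were not called did change sign, as given above for scaling and for the subtracted empty vector change. Others did so with another reference library. Against the uninduced empty vector library, 48 h values turned positive for CTSA (0.56), LAMP1 (0.10) and LAMP2 (0.05) in the AML1-ETO line. The same held for CTSC (0.43) and CTSZ (0.36) in the ETO2-GLIS2 line. Against the mean of the 3 uninduced libraries, CTSA (-0.04), CTSC (-0.19) and CTSZ (-0.19) turned negative at 48 h in the empty vector line. At 48 h in the empty vector line, the 3 members up became 1 after rescaling by the median ratio, 5 at 1.5-fold, 1 at 3-fold and 1 against the mean of the 3 uninduced libraries. The 2 members down at 48 h in the AML1-ETO line became 0 at 3-fold, 4 with the empty vector change subtracted, and 0 against the uninduced empty vector library. In the ETO2-GLIS2 line at 48 h, 0 members up became 2 against the uninduced empty vector library and 2 against the mean of uninduced libraries, and 0 down became 1 (CTSD) with the empty vector change subtracted. At 12 h, 0 up in the empty vector line became 1 as TPM and 3 at 1.5-fold, 0 up in the AML1-ETO line became 2 against the uninduced empty vector library, and 0 up in the ETO2-GLIS2 line became 5 against that library and 1 against the mean of uninduced libraries. The 4 members past 2-fold below the empty vector line at 48 h in the AML1-ETO line became 2 with a pseudocount of 1. Apart from the effect of a higher or lower threshold, the cause was not tested. Leaving out a replicate was not possible with 1 library per condition. No paired analysis was possible because no condition had a second library and the labels give no replicate numbers. Depth was not the limit for most members, whose intervals were narrow, and the spread between cultures is unknown.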

Other observations

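Autophagy genes, which feed material to lysosomes, were a further list. Of 17 tested at 48 h, 0 were past 2-fold in either direction in the empty vector and ETO2-GLIS2 lines, and 2 were up and 0 down in the AML1-ETO line, where 17.3% of all genes were past 2-fold up and 11.3% down. The 2 of 17 is below that share of all genes. The medians were 0.15, 0.25 and 0.49, beside 0.16, 0.16 and 0.22 for all genes. GABARAPL1, an LC3 relative, rose from 1.32 to 4.62 FPKM. ATG12, part of the conjugation system that builds autophagosomes, rose from 5.31 to 11.2 FPKM in the AML1-ETO line. GABARAPL2 went from 10.7 to 19.6 FPKM and MAP1LC3B, whose product LC3 coats autophagosomes, from 8.64 to 14.6 FPKM in that line, both within 2-fold.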
